A study of Rattus norvegicus with 60 samples.

Results

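Ribosomal proteins are the protein subunits of the cytosolic ribosome, the machine that translates mRNA. They were followed in the rat spinal cord after contusion injury with and without methylprednisolone (MP), a synthetic glucocorticoid. Every probe set that carried a single gene symbol of the Rpl or Rps series, of the P-stalk genes Rplp0 to Rplp2, or Rpsa was taken, the S6 kinases and symbols of pseudogenes were left out and each gene was given the mean of its probe sets. This gave 73 genes from 260 probe sets, of 14324 genes in all. The arrays held 27342 probe sets, of which 15097 carried a single symbol and could be assigned to a gene. Of the 73, 45 belong to the large subunit and 27 to the small subunit. The remaining symbol, Rps19bp1, is taken by the naming rule but encodes a protein that binds Rps19 and not a ribosomal protein. All 73 genes passed the filter on noisy duplicates.

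The series held 60 female Long Evans rats of 8 or 9 weeks, each on 1 array, with 2 rats for each group and time, called rat 1 and rat 2. Injury was a contusion from a New York University impactor after a laminectomy at the lower thoracic cord. The 4 groups were sham with the vehicle 70% ethanol (S-EtOH), sham with MP at 30 mg/kg (S-MP), injury with the vehicle (SCI-EtOH) and injury with MP at 30 mg/kg (SCI-MP), given intravenously. The lesioned piece of cord was removed at 7 times, which were 2, 4 and 6 h (here 2~6 h), 8 h, 12 h, and 24 with 48 h (here 24~48 h) after the drug or vehicle, and both vehicle groups also at 0 h, for which no MP rat exists here. The values are log2 and lie near 0 for each gene, so they show how a gene differed between arrays and not how abundant it was compared with another gene. Neuron, astrocyte and oligodendrocyte markers were measured in all groups, with 11 of 12, 7 of 8 and 7 of 9 listed genes on the array.

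The proteins of both subunits are needed in matched amounts, and their genes are usually expressed together. Their mRNAs begin with a C followed by a run of pyrimidines, the 5′ terminal oligopyrimidine (TOP) tract, through which growth signals acting on the kinase mTOR and the protein Larp1 set their translation. Dividing and activated cells are known for a high output of ribosomes.

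Ribosomal protein genes were higher in the injured cord than in the sham cord. In the deposited values the median difference was largest at 24~48 h, whereas after quantile normalization of the arrays it was largest at 8 h without MP (0.62, against 0.42 at 24~48 h) and at 12 h with MP (0.58, against 0.53). On each array the mean over the 72 ribosomal protein genes was taken. At 24~48 h these means were 0.63, 0.68 and 0.78 (lowest, median and highest of 4 arrays) in SCI-EtOH and 0.51, 0.75 and 0.89 in SCI-MP. The sham arrays of the same phase gave −0.18, −0.02 and 0.09 in S-EtOH and −0.18, −0.05 and 0.06 in S-MP. No injured array of 24~48 h overlapped any sham array of that phase, and the injured arrays with and without MP overlapped each other. At 2~6 h the means were −0.11, 0.00 and 0.10 in SCI-EtOH, −0.20, 0.02 and 0.16 in SCI-MP, −0.38, −0.19 and −0.11 in S-EtOH and −0.47, −0.20 and −0.08 in S-MP, with 6 arrays each. There the injured and the sham arrays overlapped, and the lowest SCI-MP array lay below the medians of both sham groups. In these pieces of whole tissue, a change in the share of a cell type and a change in the RNA of each cell cannot be told apart.

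**Figure D1:**
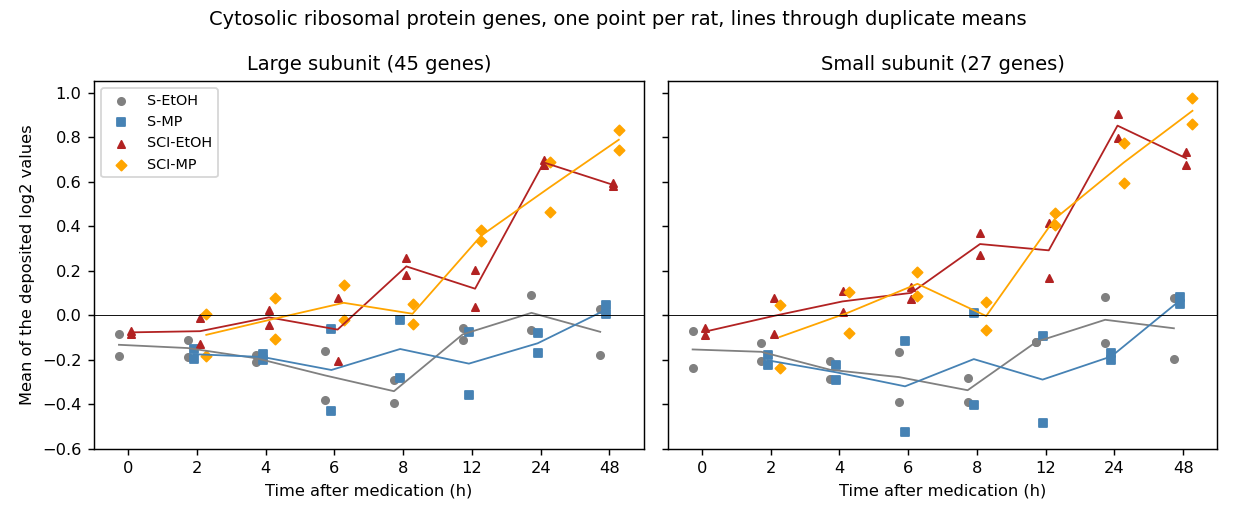
Mean of the deposited log2 values over the 45 large subunit genes (left) and the 27 small subunit genes (right) against time after medication in hours, with unequal steps between times. Each point is 1 rat, lines join the means of the 2 rats, and colours give the 4 groups. Both subunits climb in SCI-EtOH and SCI-MP from 12 h to 24 h while no sham array exceeds 0.09, and at 8 h the SCI-EtOH arrays lie above all sham arrays and the SCI-MP arrays overlap them.

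The effect of injury without MP was measured as SCI-EtOH minus S-EtOH in limma, with 1 mean per group and time and Benjamini-Hochberg adjustment over all 14324 genes. Over the mean of the 7 times from 2 to 48 h, 62 of the 73 genes were higher and 3 were lower, with a median log2 difference of 0.40. Of all genes, 62.7% were called, 35.1% higher and 27.5% lower, with a median of 0.04. The number of ribosomal protein genes called higher differed between the phases. It was 31 of 73 at 2~6 h (18.4% of all genes), 50 at 8 h (11.8%), 24 at 12 h (14.3%) and 64 at 24~48 h (25.4%). The numbers called lower were 3 (16.7%), 0 (12.6%), 1 (17.3%) and 0 (22.2%), and 31.6% of all genes were called at 12 h in either direction. The median log2 differences were 0.21, 0.59, 0.29 and 0.75, and the last is 1.68-fold. The 8 h count was 28 without rat 1 of S-EtOH at 8 h and 33 without rat 2 of SCI-EtOH at 8 h. The 12 h count of 25 was 9 without rat 2 of SCI-EtOH at 12 h, and 12 or 16 when the first or the other S-EtOH rat of that time was left out.

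At 0 h, directly after the vehicle was given, limma called 0 of the 73 genes, with 6 higher and 2 lower at an unadjusted p under 0.05 and a median log2 difference of 0.08. Of all genes 0.0419% were called, 0.0279% higher and 0.014% lower, from 2 arrays against 2. With this 0 h difference taken off, 9 of the 73 genes were past the threshold over the 7 times at a median of 0.36, and 47 at 24~48 h at a median of 0.61. The counts of 2~6 h, 8 h and 12 h became 0, 8 and 1. This subtraction adds the error of only 4 arrays at 0 h to every difference. The share of all genes called after it was not counted, so these counts have no background beside them.

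The effect of injury under MP was measured as SCI-MP minus S-MP, which shares no array with the comparison above. Over the 7 times 70 of 73 genes were higher and 0 lower, at a median log2 difference of 0.41 (21.7% of all genes higher, 33.3% lower). At 24~48 h 72 were higher and 0 lower (18.3% and 22.6%), at a median of 0.76 or 1.69-fold, and Rpl15, a large subunit protein, was the exception at 0.30 (SE 0.18, adjusted p = 0.187). At 2~6 h 30 were higher (8.23%) at a median of 0.21, at 8 h 1 (4.24%) at a median of 0.16, and at 12 h 60 (12.4%) at a median of 0.60. The 2~6 h count was 15 to 19 without rat 1 of S-MP at 6 h, rat 2 of SCI-MP at 2 h, rat 1 of SCI-MP at 4 h or rat 1 of SCI-MP at 6 h. The 12 h count was 15 without rat 1 of S-MP at 12 h and 39 or 38 without the first or the other SCI-MP rat of 12 h. Across the 73 genes, the late differences with and without MP had a Pearson r of 0.386 and a Spearman rho of 0.491, a description over genes that are not independent and whose probe sets are the same in both.

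**Figure D2:**
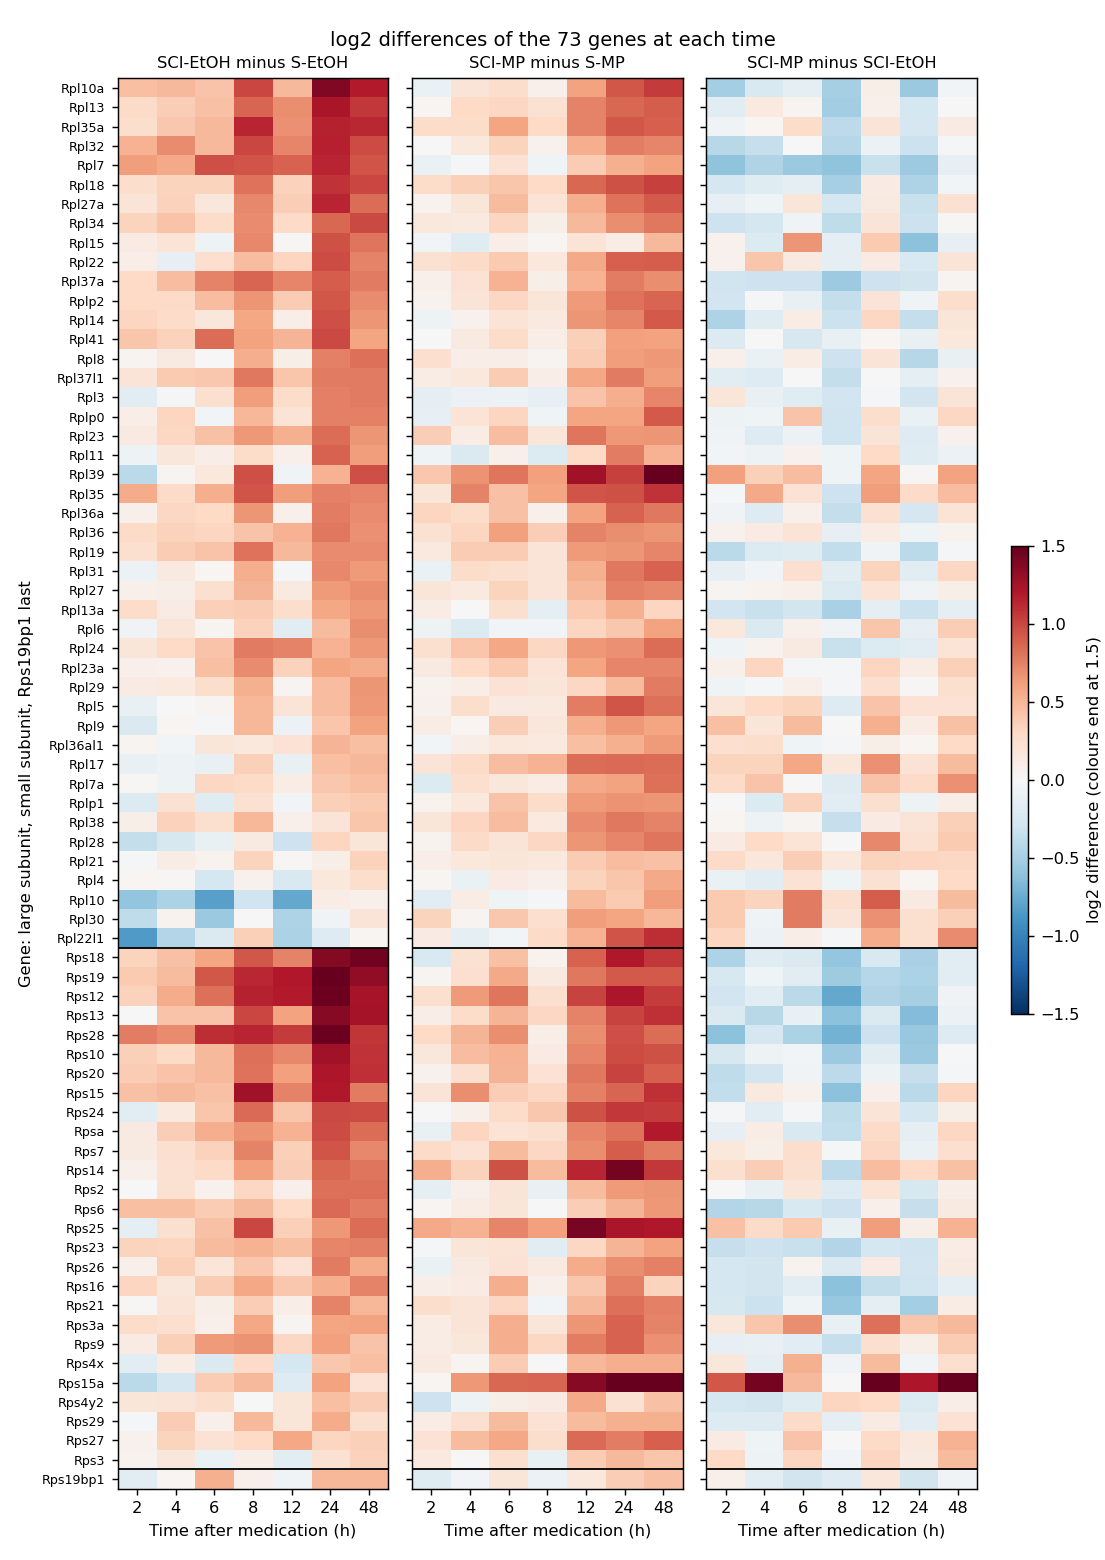
log2 difference of each of the 73 genes (vertical axis, large subunit above the first line, small subunit below it) at each time in hours (columns) for SCI-EtOH minus S-EtOH, SCI-MP minus S-MP and SCI-MP minus SCI-EtOH. Colours run from blue (lower) to red (higher) and end at 1.5. The injury panels are red at 24 and 48 h in nearly every gene, and the middle panel is pale at 8 h. In the right panel 7 of 73 genes are above 0 at 8 h and 55 at each of 12 and 48 h, and the other times are mixed. Rps15a is red in that panel at 6 of 7 times.

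Time within a group was compared as the mean of 24 and 48 h minus the mean of 2, 4 and 6 h. In SCI-EtOH 70 of 73 genes rose (28.3% of all genes) at a median of 0.69, and in SCI-MP 73 rose (28.1%) at a median of 0.73. In S-EtOH limma called 0 genes (0.538% of all genes higher, 0.363% lower). There 18 were higher and 0 lower at an unadjusted p under 0.05, at a median of 0.16. In S-MP limma called 2 higher (1.94%), Rps6 at 0.35 (SE 0.09) and Rpl18 at 0.33 (SE 0.09), at a median of 0.17. Both calls could be lost by leaving out 1 array (adjusted p up to 0.192 and 0.269), and the count then ran from 0 to 6. The injury difference itself grew from the early to the late phase in 53 genes without MP (16.7%) at a median of 0.51, and in 55 genes with MP (15.9%) at a median of 0.54. After quantile normalization of the 60 arrays these 2 counts were 0 and 4, and the medians 0.12 and 0.21. The spread of values on an array differed with injury, which quantile normalization makes equal: the SD over probe sets was 0.32 to 0.53 on injured arrays and 0.17 to 0.20 on sham arrays at 24~48 h, against 0.21 to 0.47 and 0.16 to 0.25 at 2~6 h. The 0.47 came from rat 1 of SCI-EtOH at 6 h, whose duplicate had 0.23, and the other injured arrays of 2~6 h reached 0.37. Under that normalization 51 and 60 genes were called at 24~48 h, at medians of 0.42 and 0.53, while the medians of 2~6 h moved to 0.35 and 0.30.

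At 24~48 h 59 of the 73 genes had all 8 injured arrays above all 8 sham arrays, which held for 9.01% of all genes. At 2~6 h, with 12 arrays each, 0 of the 73 genes were apart in this way, against 0.447% of all genes.

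Among the small subunit proteins, which form the part of the ribosome that reads the mRNA, 24 of 27 genes rose and 0 fell in SCI-EtOH against S-EtOH at 24~48 h, with a median of 0.81. Rps18, a protein of the small subunit head, had values of 1.39, 1.42, 1.36 and 1.45 in SCI-EtOH at 24~48 h and −0.15, 0.19, −0.23 and 0.14 in S-EtOH. The groups were far apart, and the difference of 1.41 (SE 0.14, adjusted p = 1.66e-10 in limma) was the largest of the family in that phase, next to 1.41 for Rps19. With MP the values of Rps18 were 1.07, 0.78, 1.26 and 1.20 in injured rats and −0.13, −0.41, 0.06 and 0.28 in sham rats. All 4 SCI-MP arrays lay below all 4 SCI-EtOH arrays and above every sham array. The difference of SCI-MP from SCI-EtOH in that phase was −0.33, which limma did not call (adjusted p = 0.116). Rps18 also had the largest rise from 2~6 h to 24~48 h in both injured groups, 1.24 in SCI-EtOH and 1.20 in SCI-MP (SE 0.13 each). It was followed by Rpl39 at 1.13 and Rps13 at 1.10 in SCI-EtOH and by Rpl10a at 1.08 and Rps15a at 1.05 in SCI-MP.

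Rps28, a small protein at the mRNA exit, had the largest injury difference over the 7 times, 1.04 (SE 0.07, adjusted p = 4.11e-15). Its values at 24~48 h were 1.13, 1.44, 1.11 and 1.07 in SCI-EtOH and −0.32, −0.05, −0.17 and 0.19 in S-EtOH. It was already apart at 2~6 h, with 0.19, 0.49 and 0.96 (lowest, median and highest of 6 arrays) in SCI-EtOH against −0.53, −0.31 and −0.09 in S-EtOH. At 0 h the 2 SCI-EtOH arrays gave 0.18 and 0.26 and the 2 S-EtOH arrays −0.08 and −0.31, a difference of 0.42 (adjusted p = 0.342). Rps19, which is mutated in Diamond-Blackfan anaemia, differed by 0.99 (SE 0.08) over the 7 times, Rps12 by 0.97 (SE 0.09), and the large subunit genes Rpl7 and Rpl32 by 0.87 (SE 0.06) and 0.80 (SE 0.06). Adjusted p-values of these 4 genes in limma ran up to 2.13e-11. Rps19 in the late phase was 1.07, 1.30, 0.85 and 1.43 in SCI-EtOH and −0.42, −0.19, −0.41 and 0.03 in S-EtOH, again without overlap. Rpl7 differed by 0.69 at 0 h too (adjusted p = 0.0563), with 0.34 and 0.27 in SCI-EtOH and −0.31 and −0.47 in S-EtOH.

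Rpsa, a small subunit protein also known as the laminin receptor, differed by 0.58 (SE 0.09) over the 7 times and by 0.90 (SE 0.16) at 24~48 h. The 3 small subunit genes that missed the threshold over the 7 times were Rps15a at 0.12, Rps3 at 0.09 (adjusted p = 0.222) and Rps4x at 0.09 (SE 0.07, adjusted p = 0.263), of which Rps4x was higher at 24~48 h by 0.43 (SE 0.13, adjusted p = 0.00532). Its relative Rps4y2 differed by 0.23 (SE 0.05) and 0.41 (SE 0.10). The value of Rps3 is the mean of 2 unlike probe sets. They gave 0.35 and −0.17 over the 7 times, and 0.63 and −0.05 at 24~48 h.

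Among the large subunit proteins, which carry the catalytic centre for peptide bonds, 39 of 45 genes rose and 0 fell at 24~48 h, with a median of 0.74. Over the 7 times the median was 0.37, beside 0.48 in the small subunit, and no test of subunit against subunit was made. The acidic stalk that recruits elongation factors is built on Rplp0 with Rplp1 and Rplp2. Rplp0 differed by 0.37 (SE 0.06) over the 7 times and Rplp2 by 0.54 (SE 0.06), whereas Rplp1 was at 0.11 (SE 0.05, adjusted p = 0.0744). All of the stalk genes were higher at 24~48 h, by 0.76 for Rplp0, 0.37 for Rplp1 and 0.82 for Rplp2. Rpl22 differed by 0.39 (SE 0.07) and Rpl36a by 0.42 (SE 0.08) over the 7 times, and the paralogous symbols Rpl36al1 and Rpl37l1 by 0.22 (SE 0.06) and 0.54 (SE 0.06). Rps19bp1, which is no part of the ribosome, differed by 0.20 (SE 0.05).

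The 3 genes that were lower after injury over the 7 times all belong to the large subunit. Rpl10, which is loaded onto the large subunit late in its assembly, was lower by 0.39 on the log2 scale, at −0.39 (SE 0.08, adjusted p = 0.000135). At 2~6 h its values were −1.20, −0.47 and −0.31 in SCI-EtOH and −0.02, 0.05 and 0.12 in S-EtOH, with no overlap. Later, at 24~48 h, they were 0.59, 0.33, 0.35 and 0.11 against 0.38, 0.31, 0.05 and 0.26, and the groups overlapped. Rpl22l1, a paralog of Rpl22 that can take its place, was at −0.26 (SE 0.07) over the 7 times and −0.51 (SE 0.11, adjusted p = 0.000487) at 2~6 h. Rpl30 was at −0.17 (SE 0.08, adjusted p = 0.0483), close to the threshold, so that leaving out most single arrays ended the call. It was at −0.08 without rat 1 of SCI-EtOH at 6 h (adjusted p = 0.158), an array with −1.39 for this gene where its duplicate had −0.07. At 0 h Rpl22l1 was at −0.52 and Rpl30 at −0.57, and with these differences taken off they stood at 0.27 and 0.40. In the MP arms, SCI-MP minus S-MP was above 0 for all 3, at 0.19 (adjusted p = 0.0501) for Rpl10, 0.40 for Rpl22l1 and 0.39 for Rpl30 (adjusted p = 1.04e-05 and 3.7e-05).

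**Figure D3:**
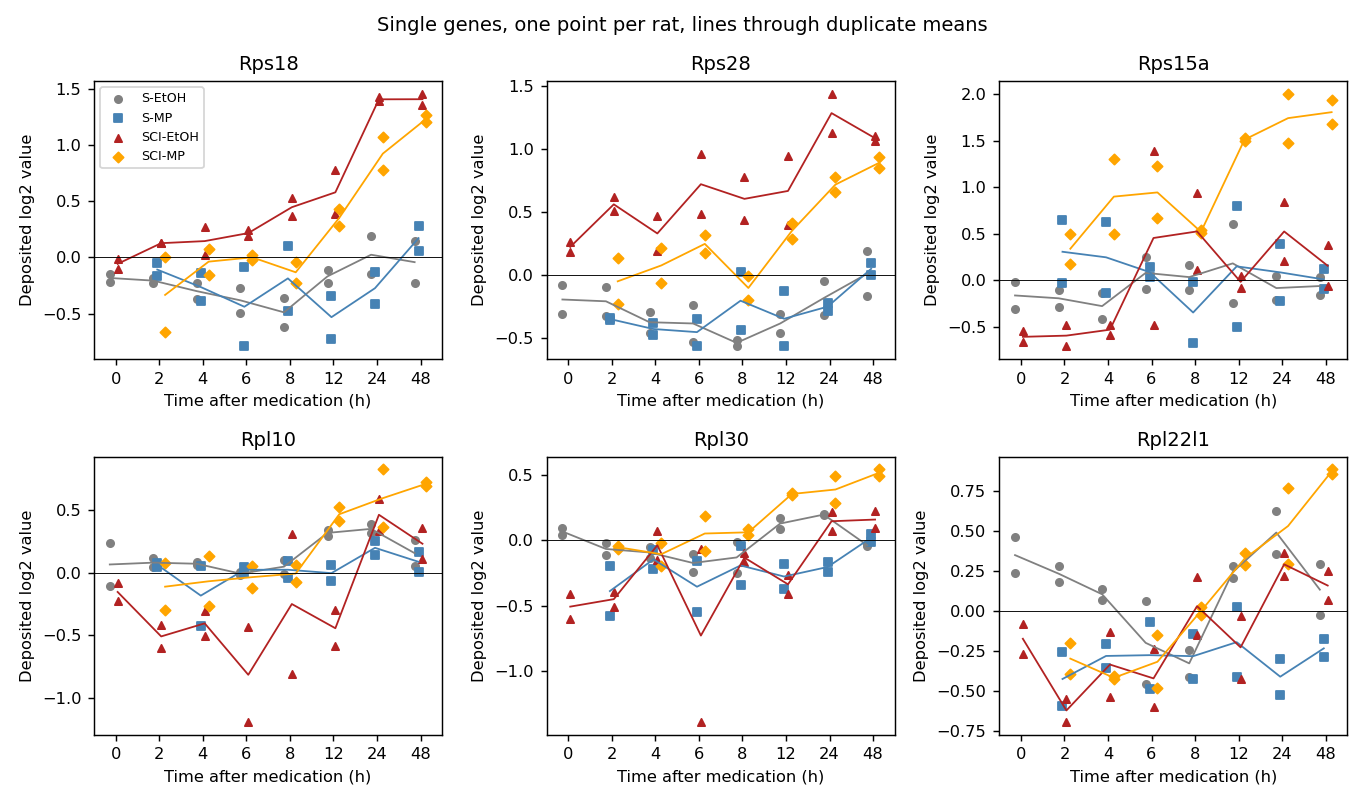
Deposited log2 values of 6 genes against time after medication in hours, with unequal steps between times and a scale of its own for each gene. Each point is 1 rat, lines join the means of the 2 rats, and colours give the 4 groups. Rps18 and Rps28 are apart by injury at 24 and 48 h, Rps15a is highest in SCI-MP at 24 and 48 h, with 1.48 to 2.01, and Rpl10, Rpl30 and Rpl22l1 are low in SCI-EtOH at 2 h.

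The 72 ribosomal protein genes moved together from array to array. The median Pearson r of a pair of genes over the 60 arrays was 0.767, from −0.00125 to 0.973 over 2556 pairs, and for deviations from the mean of each group and time it was 0.452. These pairs share their arrays, the normalization and the groups, so the values are a description. Rpl27 and Rps20 followed the mean of all other ribosomal protein genes most closely (r = 0.971 and 0.967). Rpl10 (r = 0.41), Rps15a (0.552), Rpl30 (0.572) and Rpl22l1 (0.603) followed it least, the same genes that had the largest positive MP difference beyond sham below, together with Rpl39.

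The probe sets of a gene did not always move alike. Of the 260 probe sets 221 were higher and 0 lower in SCI-EtOH minus S-EtOH at 24~48 h. The share over all probe sets is not given here, and by gene 25.4% of all were higher and 22.2% lower. Probe sets of 1 gene are not independent, and Rpl21 alone had 21. In the 55 genes with several probe sets the median range between them was 0.15 on the log2 scale, and in 14 it was over 0.5. The widest was Rps9, whose 2 probe sets gave −0.01 and 1.05, followed by Rpl36al1 with 0.00 and 0.97 and Rps21 with 0.00 to 0.89 over 4. Ribosomal protein genes have many processed copies in the genome, and signals of a parent and a copy cannot be told apart where the probes match both.

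Promoters of the family were looked up in RefSeq (build GRCr8), and 62 of the 73 genes had 1, of which 61 belong to ribosomal protein genes. A C followed by at least 4 pyrimidines, starting within 10 bases of the annotated start on the sense strand, was found in 46 of 61 (75.4%), against 28.8% of 27457 promoters in all. In the 300 bases around the start, GGAAG or its complement CTTCC was present in 88.5% (70.1% of all promoters), GCCAT or ATGGC in 49.2% (41.4%) and GGGCGG or CCGCCC in 59.0% (34.9%). CTTCC can lie inside a pyrimidine run, so the first 2 motifs overlap. A match is a description of letters, not a site in use. The 30 bases around the start are given for genes with different behaviour, with the longest such run in capitals and the annotated start as the 16th base. Rps18, Rps28 and Rplp0 rose after injury, Rps15a and Rpl10 differed most between injured rats with and without MP, and Rps19 and Rpl22l1 have no such run within these limits.
Rps18 (chr20:4933730-4933759, plus strand): cacgtcacttccgCTCTCTCTTCCacagga
Rps28 (chr7:15311319-15311348, minus strand): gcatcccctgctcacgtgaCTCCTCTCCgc
Rplp0 (chr12:46718376-46718405, minus strand): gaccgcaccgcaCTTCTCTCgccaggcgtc
Rps15a (chr1:181860270-181860299, minus strand): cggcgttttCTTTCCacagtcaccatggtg
Rpl10 (chrX:157205835-157205864, plus strand): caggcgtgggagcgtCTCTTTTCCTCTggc
Rps19 (chr1:89608673-89608702, plus strand): cccgacttgtgcgcccgggaaaccccgtcg
Rpl22l1 (chr2:113683181-113683210, plus strand): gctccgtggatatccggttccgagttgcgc
Of these genes, Rpl10, whose run of 12 pyrimidines begins at the annotated start, and Rpl22l1, without a run here, were lower after injury at 2~6 h. Rps18 and Rps28, with a run, and Rps19, without one here, were among the genes with the largest rise. Injury differences of genes with and without a run were not compared.

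Whether MP changed the family in injured cord was asked by SCI-MP minus SCI-EtOH, which shares its SCI-EtOH arrays with the first comparison. Over the 7 times 19 genes were higher and 19 lower, at a median of −0.01, against 42.1% of all genes called, 10.4% higher and 31.7% lower, and a median of −0.06. At 2~6 h 10 were higher (3.71%) and 10 lower (22.9%). At 8 h 0 were higher (2.11%) and 9 lower (4.54%, and 6.65% in either direction), at a median of −0.28 or 0.82-fold, and at 12 h 10 were higher (7%) and 0 lower (9.18%), at a median of 0.20. At 24~48 h 6 were higher (3.27%) and 2 lower (10.6%), at a median of −0.01. The 8 h count was 0 without rat 1 of SCI-MP at 8 h and 3 to 5 without any of the other 3 arrays of that time, the 12 h count was 3 or 4 without rat 2 of SCI-EtOH at 12 h or either SCI-MP array, and the 2~6 h count of 20 was 10 without rat 1 of SCI-EtOH at 4 h and 13 without rat 1 of SCI-MP at 2 or 6 h. The 24~48 h count of 8 was 3 to 5 without either SCI-EtOH array of 24 h, rat 2 of SCI-EtOH at 48 h or rat 1 of SCI-MP at 48 h.

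These differences ran against the difference that SCI-EtOH had from S-EtOH at 0 h, on arrays that the MP comparison does not use. Of the 19 genes called higher with MP, 18 were below 0 in SCI-EtOH minus S-EtOH at 0 h, and of the 19 called lower, 18 were above 0. Of all genes called in the MP comparison, 80.5% had opposite signs in this way. The 0 h difference was then taken off the SCI-EtOH values alone, which adds it to the MP difference. SCI-MP values were left as they were, and whether those rats shared the 0 h difference was not tested. In this setting limma called 0 of the 73 genes at every phase and over the 7 times, at a median of 0.07 over the 7 times. The share of all genes called in that setting was not counted. What set SCI-EtOH apart at 0 h was not tested.

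Rps15a, a small subunit protein, had the largest MP difference, 1.04 over the 7 times (SE 0.15, adjusted p = 2.13e-06). Its values at 24~48 h were 2.01, 1.48, 1.94 and 1.68 in SCI-MP, 0.21, 0.84, −0.06 and 0.38 in SCI-EtOH, −0.22, 0.39, −0.10 and 0.12 in S-MP and −0.21, 0.04, −0.15 and 0.03 in S-EtOH. SCI-MP lay above all other arrays of that phase, and SCI-EtOH overlapped the sham groups. At 2~6 h SCI-EtOH ran from −0.71 to 1.39, with 1.39 and −0.48 in the 2 rats of 6 h. At 0 h SCI-EtOH was at −0.55 and −0.66 and S-EtOH at −0.02 and −0.31. The MP difference was 0.59 after that 0 h difference was taken off the SCI-EtOH values. Without MP the injury difference of Rps15a was 0.12 (SE 0.15, adjusted p = 0.506), and with MP it was 1.03 (SE 0.15, adjusted p = 5.15e-07).

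The other genes with the largest positive MP difference were Rpl10 at 0.47 (SE 0.08), Rps3a at 0.41 (SE 0.06), Rpl17 at 0.40 (SE 0.06), Rpl30 at 0.37 (SE 0.08) and Rpl39 at 0.37 (SE 0.10). Rps3a had 1.03, 0.88, 1.11 and 1.05 in SCI-MP at 24~48 h against 0.46, 0.63, 0.59 and 0.61 in SCI-EtOH, without overlap. At 0 h Rps3a and Rpl17 differed by only −0.07 and −0.05 between SCI-EtOH and S-EtOH, while Rpl10, Rpl30 and Rpl39 stood at −0.22, −0.57 and −0.50. The largest negative MP differences were those of Rpl7 at −0.46 (SE 0.06), Rps28 at −0.45 (SE 0.07), Rps12 at −0.37 (SE 0.09), Rps13 at −0.33 (SE 0.08), Rps18 at −0.33 (SE 0.07) and Rps16 at −0.30 (SE 0.07). Rpl7 and Rps28 had the 0 h values of 0.69 and 0.42 given above, and Rps12, Rps13 and Rps18 had 0.15, 0.08 and 0.13. Rps16 was at −0.18, the 1 gene of this group whose 0 h difference had the same sign. With the 0 h difference taken off the SCI-EtOH values, the MP difference became 0.23 for Rpl7, −0.20 for Rpl30 and −0.13 for Rpl39.

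MP in the sham cord was measured as S-MP minus S-EtOH, which shares its S-EtOH arrays with the injury comparison without MP. Over the 7 times 6 were higher (5.63% of all genes) and 6 lower (4.22%, and 9.85% in either direction), at a median of −0.01. Higher were Rpl15 at 0.30, Rps3a at 0.29, Rpl41 at 0.25, Rpl32 at 0.20, Rpl7 at 0.19 and Rpl6 at 0.17, and lower were Rpl22l1 at −0.40, Rps21 at −0.36, Rplp1 at −0.27, Rpl18 at −0.21, Rpl28 at −0.21 and Rpl4 at −0.14 (SE 0.04 to 0.09, adjusted p up to 0.049). The calls of Rpl32, Rpl15, Rpl4, Rpl28 and Rpl7 were lost when certain single arrays were left out (adjusted p up to 0.128). Under quantile normalization 23 genes were called (14 higher, 9 lower), and with array weights 19. The phases 2~6 h, 8 h and 12 h had 0 genes called in limma, with 5, 13 and 0 higher and 7, 0 and 10 lower at an unadjusted p under 0.05. Of all genes 1.17% were called at 2~6 h (0.531% higher, 0.642% lower), 0.461% higher and 0.23% lower at 8 h, and 0.112% higher and 0.447% lower at 12 h. The 24~48 h phase had 0 genes higher (0.00698%) and 1 lower (0.147%), Rpl22l1, with −0.52, −0.30, −0.18 and −0.29 in S-MP against 0.35, 0.63, −0.03 and 0.29 in S-EtOH, which did not overlap. That call was lost without any of 5 of these 8 arrays. Rps3a was higher with MP in both sham and injured rats.

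The difference between the MP effect in injured rats and that in sham rats was tested as an interaction. Over the 7 times 12 genes were higher (5.45% of all genes) and 10 lower (20.2%, and 25.7% in either direction), at a median of −0.02. Rps15a led the higher ones at 0.91 (SE 0.22), followed by Rpl22l1 at 0.66 (SE 0.10) and Rpl39, Rpl10, Rpl30 and Rpl28 at 0.59, 0.58, 0.57 and 0.49. Rpl7 led the lower ones at −0.65 (SE 0.08), followed by Rps19 at −0.48, Rps28 at −0.46, Rpl32 at −0.43, Rpl10a at −0.34 and Rps18 at −0.32. Each of these named genes had a 0 h difference of SCI-EtOH from S-EtOH of the opposite sign. It was −0.44 for Rps15a, −0.52 for Rpl22l1, −0.50 for Rpl39, −0.22 for Rpl10, −0.57 for Rpl30 and −0.26 for Rpl28. For Rpl7, Rps19, Rps28, Rpl32, Rpl10a and Rps18 it was 0.69, 0.39, 0.42, 0.71, 0.43 and 0.13. The 0 h difference was not taken off the interaction. By phase 3 were higher (0.524%) and 1 lower (5.59%) at 2~6 h, 0 (0.935%) and 6 (3.51%) at 8 h, 9 (3.16%) and 0 (4.54%) at 12 h, and 1 (0.586%) and 0 (2.47%) at 24~48 h. The medians were 0.00, −0.44, 0.28 and 0.01. These counts by phase rest on few arrays, since leaving out 1 array gave 1 to 10, 1 to 12, 0 to 14 and 1 to 4, with 0 at 12 h without rat 1 of S-MP at 12 h.

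Sorted by the response to injury and to MP at each time, 58 of the 73 genes fell at some time into the class of genes that stayed changed under MP (ICMP, 33.1% of all genes). The class that changed with injury and returned with MP (CPMP) held 17 (18.7%), and the class changed only where injury and MP came together (SEMP) held 7 (13.1%). A gene can be in several classes at different times. ICMP held 57 of the genes at 24~48 h (26.3%), CPMP held 12 at 8 h (5.26%), among them Rps12, Rps13, Rps16, Rps18 and Rps28, and SEMP held Rpl22l1, Rpl7a, Rps15a and Rps3 at 24~48 h (2.84%). With the plain analysis of variance and Tukey's test of the methods, CPMP held 1, and under quantile normalization CPMP held 3 and SEMP 1. CPMP held 7 without rat 1 of SCI-MP at 8 h and 11 without rat 2 of SCI-EtOH at 8 h, and SEMP 11 without rat 2 of SCI-EtOH at 6 h and 4 without rat 2 of SCI-EtOH at 48 h.

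Genes that work with ribosomal proteins were listed and counted in the same way, and their counts stand beside 25.4% higher and 22.2% lower of all genes in SCI-EtOH minus S-EtOH at 24~48 h. Of 40 ribosome biogenesis factors, which make rRNA and assemble the subunits, 34 were higher and 0 lower, at a median of 0.57. The largest over the 7 times were Rrp9 at 0.86 (SE 0.06) and the rRNA methyltransferase fibrillarin, Fbl, at 0.71 (SE 0.07). Of 17 other mRNAs with a TOP tract, 13 were higher and 0 lower at a median of 0.51, led over the 7 times by the elongation factor Eef1b2 at 0.81 (SE 0.08) and Nap1l1 at 0.53 (SE 0.04). In SCI-MP minus SCI-EtOH the nucleolar proteins Ncl and Npm1 were higher over the 7 times, by 0.67 (SE 0.09) and 0.58 (SE 0.07), as was Eef1a1 by 0.56 (SE 0.06). Of all genes 10.4% were higher and 31.7% lower in that comparison. For these genes and the listed genes below, the 0 h difference was not taken off the MP difference.

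Of 13 genes that control ribosomal protein synthesis, 5 were higher and 2 lower at 24~48 h (25.4% and 22.2% of all genes), at a median of 0.06. Myc, a transcription factor of ribosome genes, was at 1.32 (SE 0.08) over the 7 times, and Pdcd4, an inhibitor of translation, at −1.13 (SE 0.08). Pdcd4 was higher with MP by 0.75 (SE 0.08), and Tsc2, a brake on mTOR, lower, at −0.33 (SE 0.04). Of 10 genes of ribosome quality control 4 were higher and 1 lower, at a median of 0.23, with Mdm2, which binds free ribosomal proteins, at 0.99 (SE 0.06) over the 7 times and the rescue factor Pelo at 0.49 (SE 0.05). With MP Usp10 was at 0.40 (SE 0.07) and Pelo at −0.31 (SE 0.05).

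The ribosome of the mitochondrion has its own proteins, encoded by other nuclear genes. Of 67 mitochondrial ribosomal protein genes, 23 were higher and 3 lower at 24~48 h, at a median of 0.11, and of 70 genes of the respiratory chain and ATP synthase 7 were higher and 22 lower, at a median of −0.13. Of all genes 25.4% were higher and 22.2% lower. The medians stand beside 0.75 for the cytosolic family and 0.05 for all genes, and no test between lists was made.

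**Figure D4:**
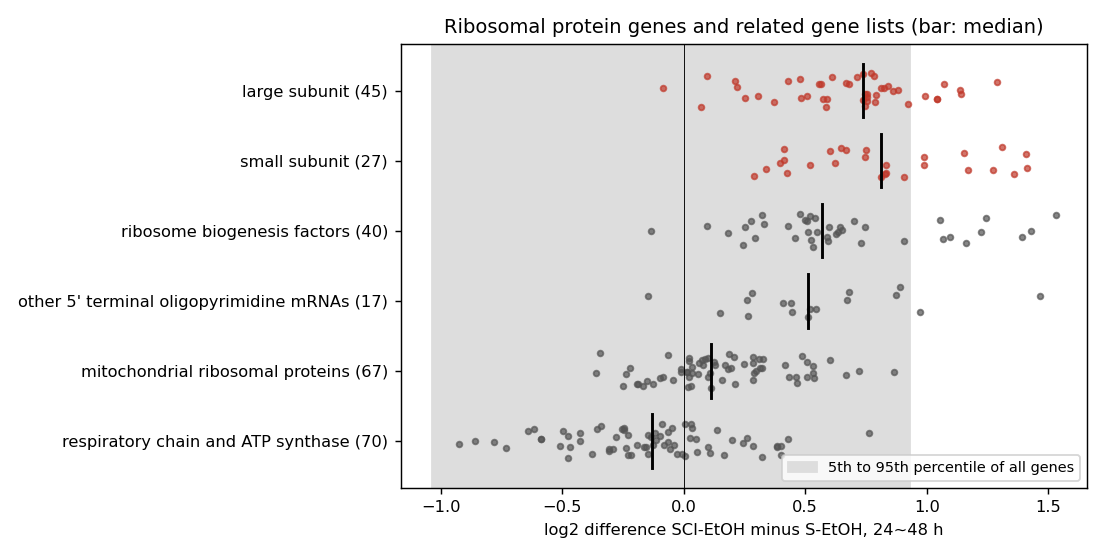
log2 difference of SCI-EtOH minus S-EtOH at 24~48 h (horizontal axis) for each gene of 6 lists, with the number of genes in brackets. Points are genes, bars are medians and the grey band runs from the 5th to the 95th percentile of all 14324 genes, −1.04 to 0.93. The medians of the large and small subunits, 0.74 and 0.81, lie right of those of mitochondrial ribosomal proteins (0.11) and the respiratory chain (−0.13).

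Markers of other cells moved over the same arrays, and their part in the ribosomal protein differences was not tested. The counts can be read beside the 25.4% of all genes that were higher and the 22.2% that were lower. At 24~48 h 7 of 11 neutrophil markers were higher and 0 lower in SCI-EtOH minus S-EtOH (median 2.02), 5 of 11 macrophage and microglia markers higher and 3 lower (0.17), and 5 of 5 erythrocyte and platelet markers higher (1.21). Of 11 neuron markers 10 were lower (−2.37), as were 7 of 7 astrocyte markers (−1.07) and 6 of 7 oligodendrocyte markers (−0.76), and of 4 endothelial markers 2 were higher and 1 lower (0.48). The summed level of the neutrophil list, in log2 values, ran from 8.25 to 21.0 in SCI-EtOH, from 1.87 to 14.6 in SCI-MP and from −2.86 to −1.68 in the sham groups. That of the neuron list ran from −25.3 to −16.3, from −24.7 to −9.65 and from 0.63 to 4.23. As each gene is centred near 0, no marker can be said to be absent.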

How the data were processed

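RNA of 60 rat spinal cords was measured on Rat Gene 1.0 ST arrays, 1 rat per array. The authors summarized probes by RMA (named in the submitters' processing notes), normalized chips and genes in GeneSpring and deposited log2 values, centred near 0 per probe set on a reference not given in the sources used here. Depth does not apply, and 2 arrays per group and time limit the precision. Labels do not give batches, and by the methods the duplicates are separate animals.

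Probe sets with a CV of duplicates under 50% on the linear scale in at least 16 of 30 pairs were kept (27338 of 27342). Of all probe sets, 15097 had 1 gene symbol, 323 several and 11922 none in the platform annotation, which can be old, and 15067 of the 15097 matched RefSeq. Probe sets of a gene were averaged. limma 3.58.1 in R 4.3.3 fitted 30 means of group and time over 60 arrays (30 residual degrees of freedom), with Benjamini-Hochberg adjustment over 14324 genes at 0.05. Classes came from the moderated F test with Tukey comparisons among the 4 groups. A phase takes all its times. The script was tested on simulated data.

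The members and lists were chosen with earlier results of these data known. Named were the 6 largest differences past the threshold in each direction of the injury, MP, sham MP and interaction comparisons, the 3 largest within each group over time, paralogs with their parents, the stalk genes, Rpsa, Rps19bp1, and 2 genes of each list. Rpl27, Rps20, Rpl7a, Rps3 and Rps9, set out for coherence, class or probe sets, were named after their values were seen, as were the comparison SCI-MP minus S-MP, the interaction by phase, and the growth of the injury difference. Alternatives were no noise filter, quantile normalization, array medians set to 0, probe sets, array weights, a fit on the compared arrays, the 0 h difference taken off, a block for the duplicate number, the methods' plain tests and leaving out each array, and, chosen after seeing the data, leaving out the 6 h arrays.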

Additional observations from a re-analysis of the deposited data

Results flagged for a closer look

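The MP effect differed between injured and sham rats (interaction in limma, Benjamini-Hochberg adjusted over all genes) in 22 of the 73 genes over the 7 times. Of all genes 25.7% were called in the same way. The interaction was 0.91 for Rps15a, 0.66 for Rpl22l1, 0.59 for Rpl39, 0.58 for Rpl10, 0.57 for Rpl30 and 0.49 for Rpl28, and −0.65 for Rpl7, −0.48 for Rps19, −0.46 for Rps28, −0.43 for Rpl32, −0.34 for Rpl10a and −0.32 for Rps18. The 0 h difference of SCI-EtOH from S-EtOH had the opposite sign in each of these genes and was not taken off. The effect of injury differed between 24~48 h and 2~6 h in 53 genes without MP and in 55 genes with MP, each tested as a difference of differences. Of all genes 31.4% and 24.8% were called in either direction, 16.7% and 15.9% higher. The counts of 53 and 55 were 0 and 4 after quantile normalization.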

How the results depend on the processing

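No result moved without the noise filter, and the injury counts of 24~48 h, 64 without MP and 72 with MP, stayed within 1.5 times under every setting, the 0 h subtraction for the first included. The duplicate numbers are shared by groups without pairing the rats (median r of duplicate deviations 0.00417, 11 of 43 pairs over 0.1). With the duplicate number as a replicate block, the counts were 1 for injury at 0 h, 7 for the interaction at 2~6 h and 11 at 8 h, and no other call count moved by over 1.5 times.

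With the 0 h difference taken off, injury without MP had 9 calls over the 7 times, 0 at 2~6 h, 8 at 8 h and 1 at 12 h. In the MP comparison in injured rats it was taken off the SCI-EtOH values alone, which adds it to the MP difference. That comparison had 0 over the 7 times and 0, 0, 0 and 0 at the phases, with a median of 0.073. Among the differences named for each comparison, the sign over the 7 times turned for the injury difference of Rpl22l1 (0.27) and Rpl30 (0.40) and for the MP difference of Rpl30 (−0.20), Rpl39 (−0.13), Rpl7 (0.23), Rpl22l1 (−0.26), Rps4y2 (0.075), Rpl36al1 (−0.068), Rplp1 (−0.13), Rplp2 (0.16), Rpsa (0.33) and Rpl22 (−0.065). Of the other genes called in the MP comparison, it also turned for Rpl32 (0.48), Rpl10a (0.16), Rps6 (0.12), Rps19 (0.095), Rpl18 (0.022), Rps20 (0.0058) and Rps27 (−0.0051). The wider error of the 4 arrays of 0 h is part of this setting. Shares of all genes called were not counted under this or the other alternative settings.

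Under quantile normalization MP in injured rats had 18 calls over the 7 times (median 0.012) and 9, 0, 0 and 0 at the phases in order, and MP in sham rats 23, 9, 9, 5 and 3. Late minus early had 13 calls in S-EtOH, 12 in S-MP and 45 in SCI-EtOH, the growth of the injury difference 0 and 4, injury at 0 h 3, SCI-MP minus S-MP at 8 h 9, SEMP 1 and CPMP 3. The MP difference of Rpsa was 0.021.

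With array weights the counts were 28 and 5 for late minus early in S-EtOH and S-MP, 8 for injury at 0 h, 6, 0, 6 and 1 for MP in injured rats at the 4 phases, 19 for MP in sham rats over the 7 times and 7, 10 and 1 at 2~6 h, 8 h and 12 h, 7 for SCI-MP minus S-MP at 8 h, 2 for the interaction at 2~6 h and 6 for CPMP. With array medians set to 0 the interaction at 2~6 h had 2 calls and the MP median was 0.0046. Fitted on the compared arrays alone, the counts were 14 for late minus early in S-EtOH, 9 for injury at 0 h and 28 at 8 h, 6, 0, 5 and 0 for MP in injured rats, 1 for MP in sham rats at 2~6 h, 19 and 5 for SCI-MP minus S-MP at 2~6 h and 8 h, and 1, 0 and 3 for the interaction at 2~6 h, 8 h and 24~48 h. Over probe sets late minus early in S-MP had 1 call, injury at 0 h 2, and the MP median was 0.013. The plain tests of the methods put 1 gene in CPMP.

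Without the 6 h arrays the counts were 3 for injury at 0 h, 1 and 2 for MP in sham rats at 2~6 h and 8 h, 10 and 3 for SCI-MP minus S-MP at 2~6 h and 8 h, 1, 13, 15 and 5 for the interaction at the 4 phases, and 11 for SEMP, and the MP differences of Rplp1 and Rpsa were −0.019 and 0.011. The cause of these changes was not tested.

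Leaving out 1 array at a time gave 63 to 68 calls for injury over the 7 times, and 0 to 2, 27 to 38, 28 to 53, 9 to 29 and 61 to 67 at 0 h and the 4 phases. MP in injured rats had 34 to 41 (median −0.039 to 0.0061) and 10 to 23, 0 to 10, 3 to 13 and 3 to 10, MP in sham rats 8 to 14, and 0 to 1 at 2~6 h and at 24~48 h, and the interaction 21 to 27 and 1 to 10, 1 to 12, 0 to 14 and 1 to 4. SCI-MP minus S-MP had 69 to 71 and 15 to 39, 0 to 5, 15 to 64 and 71 to 73, and late minus early in S-MP 0 to 6. SEMP held 4 to 11 and CPMP 7 to 20. The MP difference ran from −0.066 to 0.0060 for Rps4y2 and from −0.081 to 0.034 for Rpsa.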
